A study of Mus musculus with 23 samples.

Results

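Ctnnb1, the gene of beta-catenin, and 7 genes of the cell junctions it helps to build (Jup, Cdh1, Cdh2, Ctnna1, Ctnnd1, Vcl and Tjp1) were followed in mouse liver. They are 8 of the 18193 genes on the array that have a probe set of their own, and every probe set that the array's annotation gives to one of these symbols and to no other gene was taken, 17 of 45037. RNA came from livers of male C3H/He mice and was read on 23 Affymetrix arrays. The 7 knockout phenobarbital arrays and the 7 knockout control arrays came from mice that carried an Alb-Cre transgene, which expresses Cre recombinase from the albumin promoter of hepatocytes, together with Ctnnb1 alleles whose introns next to exons 3 and 6 held loxP sites. The 4 wild-type phenobarbital arrays and the 5 wild-type control arrays were labelled wild type, and the labels do not say whether those mice carried either transgene alone. Both founder lines had been backcrossed to C3H/N, a background prone to tumour promotion by phenobarbital. Phenobarbital, a drug that activates the constitutive androstane receptor, was given at 0.05% of the diet for 12 weeks. The controls had the diet without it according to the treatment text, whereas their sample labels name water as a vehicle. In this model the deletion depends on albumin promoter activity, and no value here shows in which liver cells Ctnnb1 stayed intact. The arrays are numbered within each group but are not said to be separate animals, so the p-values speak of the variation among arrays, which may be technical, and the number of arrays limits the precision.

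Beta-catenin works both at the membrane and in the nucleus of a hepatocyte. At the membrane it binds the tails of the classical cadherins, E-cadherin (Cdh1) and N-cadherin (Cdh2), and through alpha-catenin (Ctnna1) and vinculin (Vcl) it ties them to actin, while p120-catenin (Ctnnd1) holds the cadherins at the surface. In the nucleus it acts with TCF/LEF factors and keeps the perivenous gene programme of the liver lobule active. Gamma-catenin, also called plakoglobin (Jup), is its closest relative, sits in desmosomes as well as adherens junctions, and can take its place on cadherins; ZO-1 (Tjp1) is a scaffold of tight junctions that also binds alpha-catenin.

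Promoter windows, from 250 bases before to 50 bases after the annotated start, were found in the RefSeq table of build GRCm38.p6 for Ctnnb1, Jup, Ctnnd1, Vcl and Tjp1. The windows of 3 genes are shown, that of Ctnnb1 because it is the deleted gene and lies outside the floxed exons, and those of Jup and Tjp1 because both genes were called higher in knockout livers under phenobarbital. They are chr9:120933150-120933449 on the plus strand, chr11:100397741-100398040 on the minus strand and chr7:65371195-65371494 on the minus strand, 5′ to 3′, with each GC box (GGGCGG, on either strand) in capitals.
Ctnnb1: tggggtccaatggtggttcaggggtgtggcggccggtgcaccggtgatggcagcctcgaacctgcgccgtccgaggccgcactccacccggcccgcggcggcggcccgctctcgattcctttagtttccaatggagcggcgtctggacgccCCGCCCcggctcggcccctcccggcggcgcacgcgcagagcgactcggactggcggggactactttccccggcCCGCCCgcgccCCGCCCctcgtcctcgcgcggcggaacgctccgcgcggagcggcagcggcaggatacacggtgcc
Jup: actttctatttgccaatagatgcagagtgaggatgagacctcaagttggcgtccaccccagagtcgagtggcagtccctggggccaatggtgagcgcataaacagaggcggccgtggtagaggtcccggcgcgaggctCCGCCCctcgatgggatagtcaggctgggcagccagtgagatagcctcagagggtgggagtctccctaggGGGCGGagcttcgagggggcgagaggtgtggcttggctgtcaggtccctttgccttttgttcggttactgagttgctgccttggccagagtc
Tjp1: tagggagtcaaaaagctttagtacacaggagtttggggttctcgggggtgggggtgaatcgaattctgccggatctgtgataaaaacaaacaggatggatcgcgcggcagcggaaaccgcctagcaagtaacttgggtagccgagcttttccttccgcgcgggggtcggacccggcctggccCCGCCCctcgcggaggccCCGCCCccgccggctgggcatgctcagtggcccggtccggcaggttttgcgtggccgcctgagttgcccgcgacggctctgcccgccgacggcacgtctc
The Ctnnb1 window shown held 3 GC boxes, and those of Jup and Tjp1 held 2 each. A second Ctnnb1 window (chr9:120933328-120933627), not shown, also held 3. The Tjp1 window lies at an annotated start inside the gene, which spans 65296165 to 65527850 on chromosome 7. Of 32851 windows of this length in the table, 35.7% held at least 1. GC made up 75.3% of the Ctnnb1 window, 60.7% of that of Jup and 65.3% of that of Tjp1, against a median of 52.7% over all windows. None of the 3 windows held CTTTGAT, a core TCF/LEF letter string (3.73% of all windows), CACCTG, an E-box (20.2%), or AGGTCA, a short string bound by nuclear receptors (16.3%), on either strand. These matches describe the letters only.

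The values are log2 signals per probe set, and their array medians ranged over 5.09 to 5.14. Of the 17 member probe sets, 15 lay above the 40th percentile of the array in at least 4 arrays and were tested, among 28673 in all. Ctnna1 probe set 1437275_at (2.62 to 3.04 over the 23 arrays) and Vcl probe set 1416157_at (3.28 to 3.99) were below that level on each array and were not tested. The mean log2 level of 7 hepatocyte markers was 13.55 to 13.71 in knockout phenobarbital, 13.58 to 13.71 in knockout control, 13.50 to 13.56 in wild-type phenobarbital and 13.46 to 13.62 in wild-type control livers, and all 7 were above the test level on all arrays. Knockout control arrays 2, 6 and 7 had the lowest quality weights in limma, 0.612, 0.375 and 0.245. The other arrays had 0.687 or more, so array 2 lay close to the next. Its mean correlation with its own group, 0.980, was above those of knockout control arrays 3, 4 and 5 (0.978, 0.977 and 0.976). Arrays 2, 6 and 7 also had the highest mean log2 level of 14 macrophage markers in their group (8.92, 9.22 and 8.77). Leaving them out was chosen after seeing the data. Calls named here that end without arrays 2, 6 and 7 are given with that value. As a check of the genotype labels, Glul, glutamine synthetase of the perivenous hepatocytes, and Axin2, a direct target of beta-catenin, were low in the knockout groups. Glul (1426236_a_at) averaged 8.56 ± 0.57 in knockout phenobarbital livers against 11.66 ± 0.10 in wild-type phenobarbital livers, and 8.81 ± 0.65 in knockout control livers against 12.32 ± 0.13 in wild-type control livers (log2 mean ± SD, n = 7, 4, 7 and 5). Axin2 (1436845_at) changed by -0.73 (SE 0.11, adjusted p = 0.00014) under phenobarbital and by -0.79 (SE 0.11, adjusted p = 2.22e-05) without it.

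Over the 15 tested member probe sets, those of the cadherins moved most between the genotypes. In knockout against wild-type control livers, 1 member probe set rose (Vcl) and 2 fell (both of Cdh2); over all probe sets tested 21.6% were called at an adjusted p under 0.05, 11.8% up and 9.81% down. Under phenobarbital, 4 member probe sets rose in knockout livers (Jup, Cdh1, 1 of Ctnna1 and Tjp1) and the same 2 of Cdh2 fell, against 17.1% called over all, 9.17% up and 7.97% down. The 3 of 15 members called without phenobarbital are a share like that of all probe sets, and the 6 of 15 under phenobarbital are a larger one, and no test was made of either share. Without knockout control arrays 2, 6 and 7 the member calls were 2 in controls (8.82% of all) and 9 under phenobarbital (25.0% of all). The member median was 0.06 without phenobarbital and 0.18 with it (log2), beside -0.02 and -0.01 over all probe sets tested. Groups did not overlap for 3 members without phenobarbital (8.99% of all probe sets) and for 7 with it (16.4%).

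**Figure D1:**
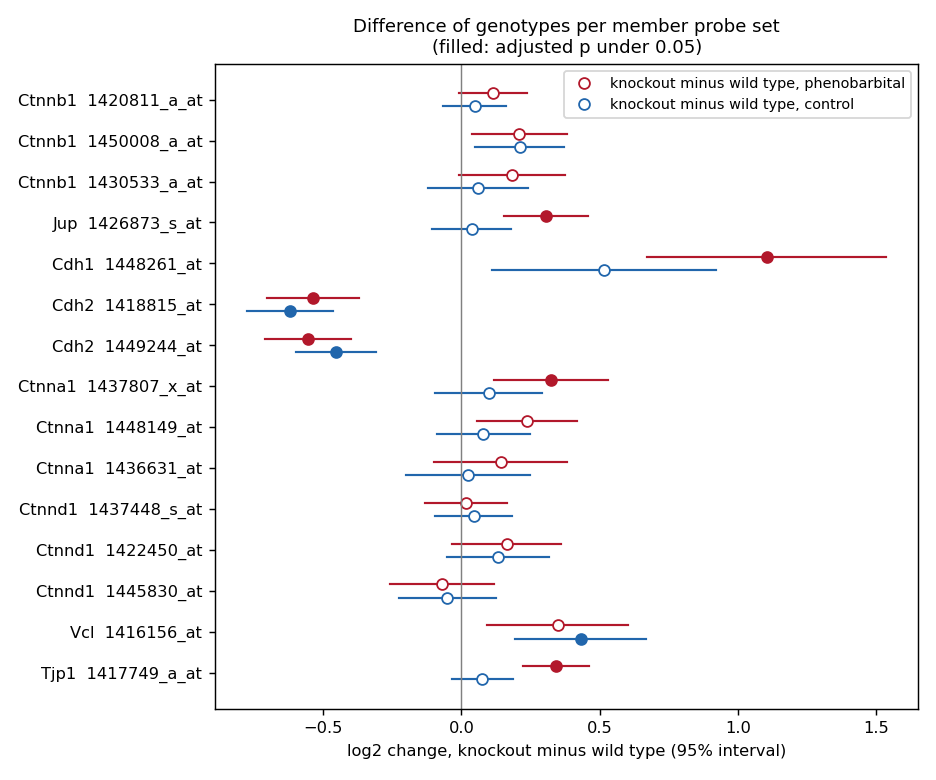
Log2 difference between knockout and wild-type livers for the 15 tested member probe sets, under phenobarbital (red) and in controls (blue), with 95% intervals from limma; filled points have an adjusted p under 0.05. Both Cdh2 probe sets lie at -0.45 or lower in both comparisons, Cdh1 reaches 1.11 under phenobarbital, and no Ctnnb1 probe set is filled.

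Ctnnb1 (chromosome 9, 120933400 to 120960507, GRCm38.p6) had no probe set with a lower mean in knockout livers. Its brightest probe set, 1420811_a_at, ran over 12.08, 12.18 and 12.37 (lowest, median and highest log2 signal) in the 7 knockout phenobarbital arrays and over 12.11, 12.19 and 12.42 in the 7 knockout control arrays. The 4 wild-type phenobarbital arrays gave 12.03, 12.10, 12.07 and 12.09, and the 5 wild-type control arrays 12.22, 12.18, 12.20, 12.18 and 12.23. The genotypes overlapped with and without phenobarbital, and the knockout arrays spread more widely (SD 0.094 and 0.115) than the wild-type arrays (SD 0.032 and 0.024). The log2 difference was 0.12 (95% interval -0.01 to 0.24, adjusted p = 0.182) under phenobarbital and 0.05 (-0.07 to 0.16, adjusted p = 0.560) in controls.

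The second Ctnnb1 probe set, 1450008_a_at, ran over 9.58, 9.78 and 9.98 in knockout phenobarbital livers and 9.68, 9.75 and 10.05 in knockout controls. It had 9.47, 9.56, 9.69 and 9.51 in wild-type phenobarbital arrays and 9.77, 9.70, 9.57, 9.53 and 9.51 in wild-type controls. Knockout arrays were on average the higher ones, with overlap in both comparisons. The difference was 0.21 under phenobarbital (95% interval 0.04 to 0.38, adjusted p = 0.083) and 0.21 in controls (0.05 to 0.37, adjusted p = 0.054), both just outside the threshold; of 33 other settings it passed in 3 under phenobarbital and in 8 in controls, each time as higher in knockout livers. The third Ctnnb1 probe set, 1430533_a_at, averaged 7.05 ± 0.16 in knockout phenobarbital against 6.86 ± 0.11 in wild-type phenobarbital livers, and 6.99 ± 0.16 in knockout against 6.93 ± 0.15 in wild-type control livers (SD), with adjusted p = 0.180 and 0.646. The order of group means differed between the Ctnnb1 probe sets, and none of the 4 differences of genotype or treatment passed for any of them; knockout phenobarbital and wild-type control livers, neighbours in some of these orders, were not compared.

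Where the 3 Ctnnb1 probe sets lie relative to the deleted exons is not given in the sources used here, so their signal cannot check the deletion: a probe outside exons 3 to 6 would still read a shortened transcript. Whole liver also holds cells without Cre, and in such bulk samples fewer cells of a type and less RNA per cell cannot be told apart. Across the 23 arrays, deviations of the Ctnnb1 probe sets from their group means followed each other, with r = 0.75, 0.48 and 0.73 for the 3 pairs. They also went with the mean level of 14 macrophage markers (r = 0.61, 0.59 and 0.63). Both measures come from the same arrays, so these are descriptions only. With that macrophage level as a covariate the Ctnnb1 differences were -0.06, 0.05 and -0.13 in controls and 0.00, 0.04 and -0.02 under phenobarbital, none called. Each knockout array had a higher macrophage level (6.98 or more) than each wild-type array (6.97 or less). Here and below, a fit with this covariate thus cannot separate genotype from cell content.

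**Figure D2:**
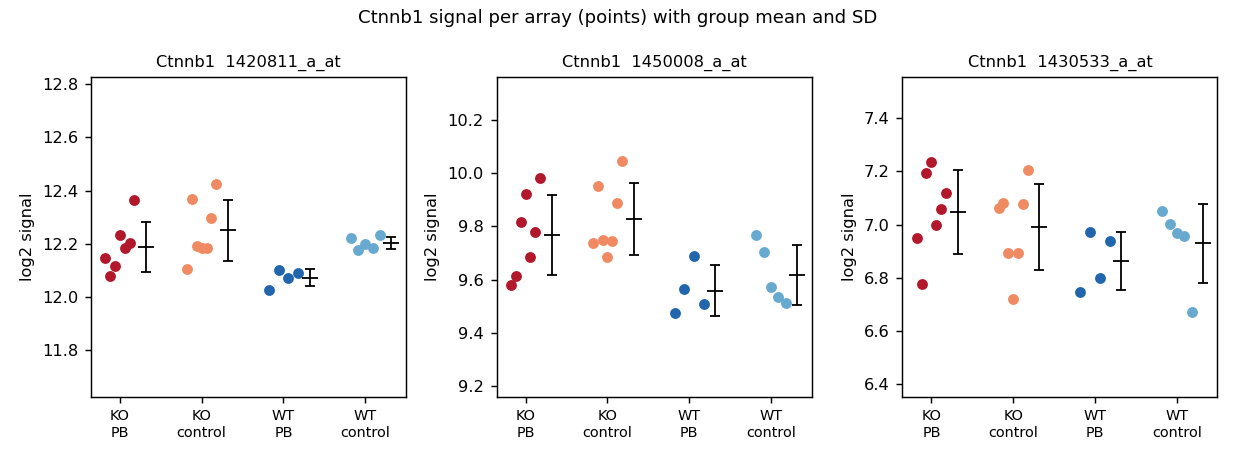
Log2 signal of each Ctnnb1 probe set on each of the 23 arrays (points), with group mean and SD (bars), for knockout phenobarbital, knockout control, wild-type phenobarbital and wild-type control livers. Knockout and wild-type arrays overlap in each panel, and the mean of 1450008_a_at is 0.21 higher in knockout livers in both.

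Jup, gamma-catenin (chromosome 11, 100368856 to 100397839), has 1 probe set, 1426873_s_at, whose suffix marks probes shared by several transcripts. It ran over 6.65, 6.93 and 7.06 in knockout phenobarbital arrays (lowest, median, highest), against 6.59, 6.53, 6.60 and 6.55 in wild-type phenobarbital arrays. All 7 knockout values were above all 4 wild-type values, with a narrow gap. Jup was 0.31 higher (SE 0.073, 1.24-fold, 95% interval 1.11 to 1.37, adjusted p = 0.0061), and the call held in all 35 other settings, with differences of 0.26 to 0.34. In controls the knockout arrays ran over 6.62, 6.71 and 6.81, against 6.76, 6.74, 6.53, 6.77 and 6.65 in wild type, with overlap. There the Jup difference was 0.04 (95% interval -0.10 to 0.18, adjusted p = 0.728), so a rise of more than 0.18 lies outside that interval.

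The effect of phenobarbital on Jup was 0.15 in knockout livers (SE 0.062, adjusted p = 0.241) and -0.12 in wild-type livers (SE 0.078, adjusted p = 0.509). The difference between those effects, 0.27 (SE 0.10), did not pass (adjusted p = 0.280), so the genotype difference of Jup is not shown to depend on phenobarbital. From high to low, Jup ordered as knockout phenobarbital (6.87 ± 0.17), knockout control (6.72 ± 0.066), wild-type control (6.69 ± 0.10) and wild-type phenobarbital (6.57 ± 0.035), and no neighbours in that order differed at the threshold. Within groups Jup did not follow the macrophage level (r = -0.13 over 23 arrays), and with that level as a covariate its phenobarbital genotype difference was 0.34 (adjusted p = 0.026). The limit of that covariate given for Ctnnb1 applies here too.

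Cdh1, E-cadherin, the epithelial cadherin that in liver is strongest around the portal tracts and in bile ducts (chromosome 8, 106603350 to 106670247), had the largest change of the members. Probe set 1448261_at ran over 10.53, 11.11 and 11.48 in knockout phenobarbital arrays, against 10.11, 9.92, 9.68 and 10.02 in wild-type phenobarbital arrays. The groups did not overlap. Cdh1 rose by 1.11 (SE 0.21, 2.15-fold, 95% interval 1.59 to 2.90, adjusted p = 0.00096). In controls the 7 knockout arrays gave 10.15, 11.25, 10.88, 10.49, 10.19, 11.25 and 11.32, against 10.37, 10.53, 9.99, 10.06 and 10.41 in wild type. Of these knockout arrays 4 were above all wild-type arrays and 3 lay inside their range. The 3 highest were arrays 2, 6 and 7, those with the lowest quality weights. The difference was 0.52 (SE 0.20, adjusted p = 0.061) with those 3 arrays and 0.15 (SE 0.17, adjusted p = 0.633) without them.

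Phenobarbital changed Cdh1 by 0.25 in knockout livers (SE 0.18, adjusted p = 0.549) and by -0.34 in wild-type livers (SE 0.22, adjusted p = 0.521), neither called, and the difference of those effects was 0.59 (SE 0.29, adjusted p = 0.477). Without knockout control arrays 2, 6 and 7 the effect in knockout livers was 0.61 (SE 0.16, adjusted p = 0.024) and the difference of effects 0.95 (SE 0.23, adjusted p = 0.036), both called. Those arrays had the highest Cdh1 of their group, so leaving them out was bound to lower the knockout control mean. Knockout phenobarbital arrays 4, 5 and 7 had macrophage levels of 8.56, 8.73 and 8.58 and were kept. These calls are therefore not counted as support for an effect of phenobarbital. Cdh1 group means ordered as knockout phenobarbital (11.04 ± 0.29), knockout control (10.79 ± 0.51), wild-type control (10.27 ± 0.235) and wild-type phenobarbital (9.94 ± 0.19), with no neighbours apart at the threshold.

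Cdh2, N-cadherin, the other classical cadherin of hepatocytes (chromosome 18, 16588877 to 16809246), was lower in knockout livers in both comparisons. Probe set 1418815_at ran over 9.60, 9.70 and 9.86 in knockout phenobarbital arrays, against 10.17, 10.30, 10.24 and 10.30 in wild-type phenobarbital arrays. In controls it ran over 9.53, 9.84 and 10.004 in knockout, against 10.38, 10.56, 10.56, 10.31 and 10.38 in wild type. No array of either knockout group reached the lowest wild-type array. Cdh2 fell by 0.54 (SE 0.080, adjusted p = 7.99e-05) under phenobarbital and by 0.62 (SE 0.075, adjusted p = 5.59e-06) in controls, where its level was 1.54-fold higher in wild type.

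The second Cdh2 probe set, 1449244_at, gave the same picture. It ran over 8.54, 8.70 and 8.86 in knockout phenobarbital arrays, against 9.20, 9.17, 9.30 and 9.30 in wild-type phenobarbital arrays. Without phenobarbital it ran over 8.51, 8.90 and 8.97 in knockout, against 9.31, 9.34, 9.33, 9.32 and 9.13 in wild type, again without overlap. Its log2 differences were -0.56 (SE 0.075, adjusted p = 2.6e-05) and -0.45 (SE 0.071, adjusted p = 0.00012). Both Cdh2 probe sets stayed called in all other settings tried, 35 for 1418815_at and 33 for 1449244_at, and their deviations from group means followed each other (r = 0.63 over 23 arrays). Phenobarbital changed Cdh2 by -0.10 and -0.15 in knockout livers and by -0.18 and -0.05 in wild-type livers, with adjusted p of 0.267 or more, and the difference of effects was 0.08 and -0.10 (adjusted p = 0.881 and 0.836).

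**Figure D3:**
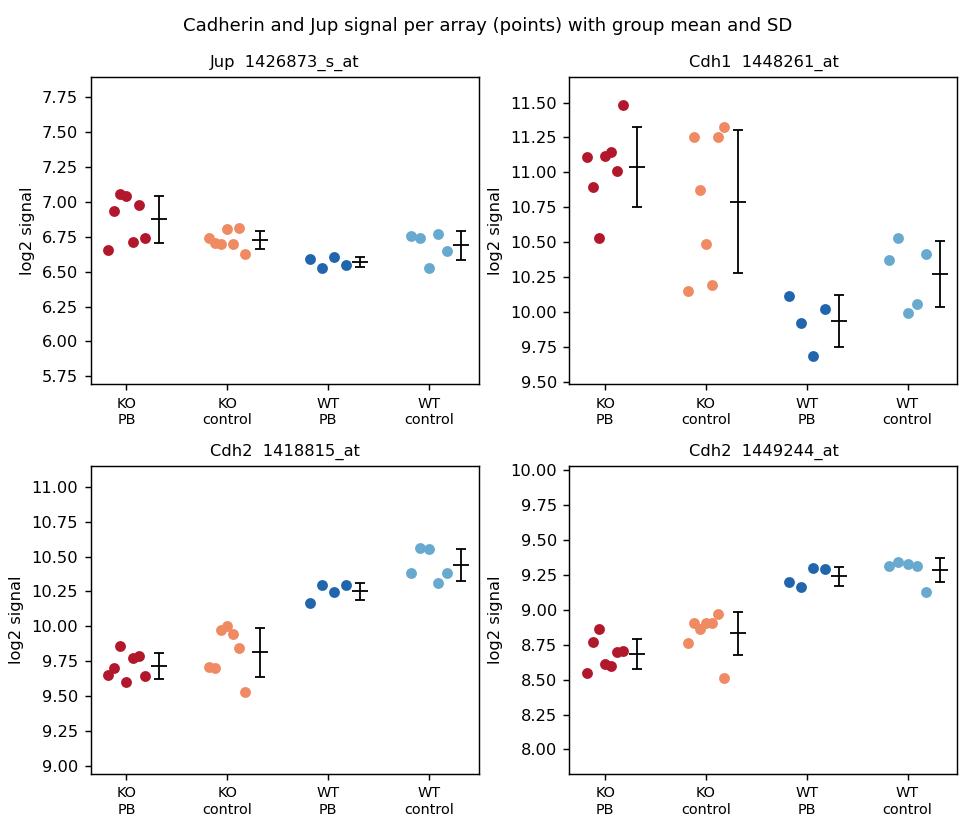
Log2 signal of Jup, Cdh1 and the 2 Cdh2 probe sets on each array (points), with group mean and SD (bars), in the order knockout phenobarbital, knockout control, wild-type phenobarbital and wild-type control. In every knockout phenobarbital array Cdh1 lies above and Cdh2 below the wild-type phenobarbital arrays. Cdh1 of knockout controls spreads over 10.15 to 11.32, and Jup separates by genotype under phenobarbital only.

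Markers of other liver cells moved with genotype too. Of 13 tested macrophage markers 9 rose and 0 fell in knockout livers under phenobarbital and 10 rose and 0 fell in controls (0 and 0 in controls without arrays 2, 6 and 7), with 11 up and 1 down under phenobarbital in that setting. Those arrays had the highest macrophage, cholangiocyte and stellate levels of their group, so leaving them out was bound to lower these knockout control means. The macrophage levels of the other knockout controls, 7.07 to 8.47, still lay above all wild-type arrays (6.97 or less). The mean log2 level of 14 macrophage markers, tested or not, was 6.98 to 8.73 in knockout phenobarbital and 7.07 to 9.22 in knockout control livers. It was 6.42 to 6.62 in wild-type phenobarbital and 6.46 to 6.97 in wild-type control livers. Of the 14 markers, 1, 0, 1 and 2 lay at or below the test level on all arrays of these groups. Of 9 tested cholangiocyte markers, from the bile duct cells that express Cdh1, 2 rose and 2 fell under phenobarbital and 3 rose and 0 fell in controls (5 and 2, and 1 and 0, without arrays 2, 6 and 7). The mean level of 11 cholangiocyte markers, tested or not, was 4.83 to 5.44 in knockout phenobarbital and 4.81 to 5.47 in knockout control livers. It was 4.82 to 4.99 in wild-type phenobarbital and 4.56 to 4.82 in wild-type control livers, near the mean test level of 4.56. Of these 11 markers, 2, 2, 4 and 2 lay at or below the test level on all arrays of these groups. Under phenobarbital Epcam (1416579_a_at) was 1.12 higher (adjusted p = 0.014) and Cd24a (1448182_a_at) 1.44 higher (adjusted p = 0.0065), while Prom1 (1419700_a_at) differed by -2.24 (adjusted p = 0.00013) and Cldn4 by -0.27 (adjusted p = 0.014). In controls Cd24a was 1.498 higher (adjusted p = 0.0027), Epcam 0.95 higher (adjusted p = 0.021) and the duct keratin Krt19 0.35 higher (adjusted p = 0.038). Without arrays 2, 6 and 7 the control differences were 0.87 for Cd24a (adjusted p = 0.039), 0.40 for Epcam (adjusted p = 0.30) and 0.26 for Krt19 (adjusted p = 0.20). Stellate and scar markers rose for 5 of 11 genes under phenobarbital and for 9 of 11 in controls, and endothelial markers for 8 of 10 and 9 of 10 (8 of 11 and 4 of 11, and 8 of 10 and 9 of 10, without the 3 arrays). By probe set, 11 of 19 macrophage, 3 of 13 cholangiocyte, 7 of 18 stellate and 9 of 12 endothelial ones rose under phenobarbital (9.17% of all). In controls 13, 5, 14 and 10 rose (11.8% of all). Of these lists only cholangiocyte probe sets also fell, 2 under phenobarbital. Of 9 lymphocyte probe sets, 1 rose and 0 fell under phenobarbital, and 1 rose and 2 fell in controls. Without arrays 2, 6 and 7 these were 3 and 0, and 0 and 1. Of 4 neutrophil probe sets, 0 rose under phenobarbital and 2 in controls (2 and 2 without those arrays), and 0 fell. The 1 blood probe set tested was called only without those arrays, lower under phenobarbital.

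Cdh1 followed the macrophage level within groups (r = 0.53 over 23 arrays) as well as the cholangiocyte level (r = 0.62) and, most closely, the stellate level (r = 0.69). Its r was 0.43 with the lymphocyte and 0.48 with the neutrophil level. Cdh2 1418815_at went the other way (r = -0.52, -0.59 and -0.35). With the lymphocyte and neutrophil levels Cdh2 1418815_at had r = -0.642 and -0.635, so neither cadherin followed macrophages in particular. With the macrophage level as a covariate, the Cdh1 difference under phenobarbital was 0.70 (SE 0.23, adjusted p = 0.061), not called, and in controls 0.13 (adjusted p = 0.825). Each knockout array had a higher macrophage level than each wild-type array, so this fit cannot separate genotype from cell content. The 5 knockout arrays with the lowest macrophage levels, 6.98 to 7.22, differed in Cdh1. Arrays 2 and 6 of the phenobarbital group had 10.89 and 11.01, and arrays 3, 4 and 5 of the control group had 10.88, 10.49 and 10.19, where the highest wild-type value was 10.53. Cdh2 stayed called with the covariate, under the same limit, at -0.39 (adjusted p = 0.0079) under phenobarbital and -0.49 (adjusted p = 0.00104) in controls for 1418815_at. The part of bile duct cells in the Cdh1 difference was not tested.

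**Figure D4:**
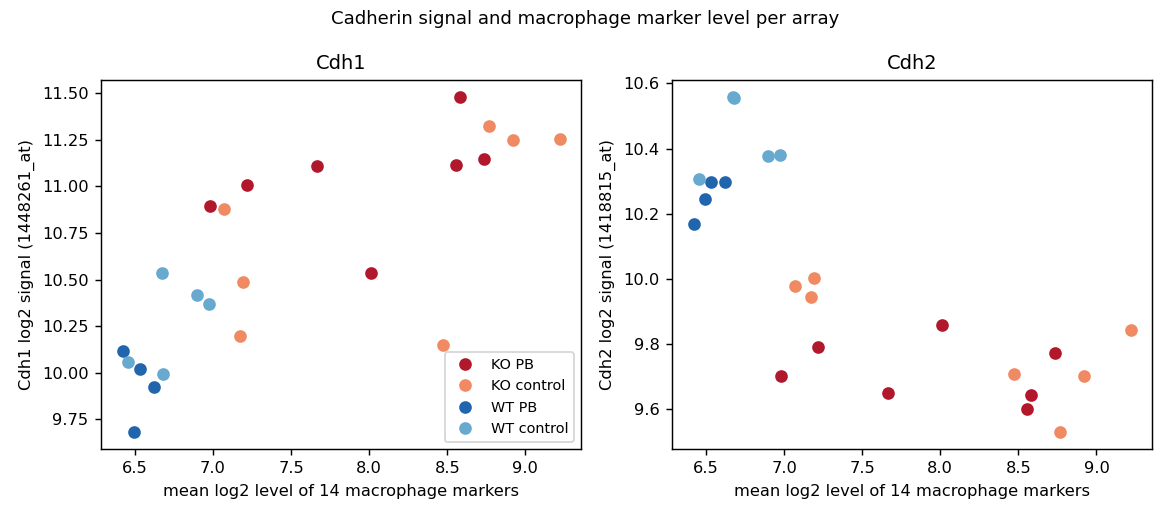
Cdh1 (1448261_at, left) and Cdh2 (1418815_at, right) log2 signal of each of the 23 arrays against the mean log2 level of 14 macrophage markers on that array, coloured by group. All knockout arrays (marker levels of 6.98 or more) lie to the right of the 9 wild-type arrays (6.97 or less). All of them have lower Cdh2 than the wild-type arrays, and most have Cdh1 above every wild-type array.

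Of the remaining catenins, Ctnna1, the actin-binding alpha-catenin (chromosome 18, 35118902 to 35254776), had 3 tested probe sets. Probe set 1437807_x_at ran over 10.93, 11.06 and 11.30 in knockout phenobarbital arrays, against 10.72, 10.80, 10.73 and 10.83 in wild-type phenobarbital arrays, without overlap. It was 0.33 higher (SE 0.099, adjusted p = 0.027), but the call ended in 8 of 35 other settings: without knockout phenobarbital array 4 or 7, without wild-type phenobarbital array 1, 2 or 3, with replicate number as a block, with the mean of the gene's probe sets, and with the macrophage covariate (0.03). Probe set 1448149_at differed by 0.24 (adjusted p = 0.061) and 1436631_at by 0.14 (adjusted p = 0.417). In controls the 3 differences were 0.10, 0.08 and 0.02, none called. Ctnna1 was also the member that followed the macrophage level most closely within groups, with r = 0.85 for 1437807_x_at and 0.87 for 1448149_at.

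Without knockout control arrays 2, 6 and 7, Ctnna1 differed between phenobarbital and control knockout livers by 0.28 for 1437807_x_at (adjusted p = 0.020) and by 0.23 for 1448149_at (adjusted p = 0.040). Those arrays had the highest values of their group for both probe sets. Leaving them out was bound to lower the control mean, so these calls are not counted as support. Ctnnd1, p120-catenin (chromosome 2, 84587096 to 84658977), was not called by any of its 3 probe sets in any comparison. Its brightest, 1437448_s_at, averaged 7.71 ± 0.12 in knockout phenobarbital, 7.84 ± 0.11 in knockout control, 7.70 ± 0.10 in wild-type phenobarbital and 7.79 ± 0.095 in wild-type control livers. The Ctnnd1 difference of genotypes there was 0.02 under phenobarbital (95% interval -0.13 to 0.16) and 0.04 in controls (-0.09 to 0.18).

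Vcl, vinculin, which binds alpha-catenin under tension and also sits in focal adhesions (chromosome 14, 20929383 to 21033676), was higher in knockout controls. Probe set 1416156_at ran over 9.01, 9.12 and 9.55 in knockout controls, against 8.87, 8.76, 8.72, 8.61 and 8.82 in wild-type controls, without overlap. Vcl rose by 0.43 (SE 0.11, adjusted p = 0.011). Without knockout control arrays 2, 6 and 7 the difference was 0.29 (adjusted p = 0.142), and with the macrophage covariate 0.14 (adjusted p = 0.57). Under phenobarbital Vcl ran over 8.92, 9.13 and 9.78 in knockout, against 8.87, 8.90, 8.77 and 8.79 in wild type, which also did not overlap, and the difference of 0.35 just missed the threshold (SE 0.12, adjusted p = 0.054; 0.027 without those 3 arrays).

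Tjp1, ZO-1 (chromosome 7, 65296165 to 65527850), was called lower with phenobarbital in wild-type livers. Probe set 1417749_a_at had 9.03, 9.10, 8.92 and 9.07 in wild-type phenobarbital arrays, against 9.24, 9.30, 9.39, 9.44 and 9.27 in wild-type controls. The groups did not overlap, and Tjp1 fell by 0.30 (SE 0.061, adjusted p = 0.0061). In knockout livers it ran over 9.28, 9.35 and 9.54 with phenobarbital and over 9.29, 9.40 and 9.505 without, a difference of -0.03 (95% interval -0.13 to 0.07). All 7 knockout phenobarbital arrays were above the 4 wild-type phenobarbital arrays, a difference of 0.34 (SE 0.057, adjusted p = 0.000301), while in controls the genotypes overlapped (0.08, adjusted p = 0.318). The difference between the phenobarbital effects, 0.27 (SE 0.078), had an adjusted p of 0.136. Both Tjp1 calls held in all 35 other settings, and within groups Tjp1 did not follow the macrophage level (r = 0.11).

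**Figure D5:**
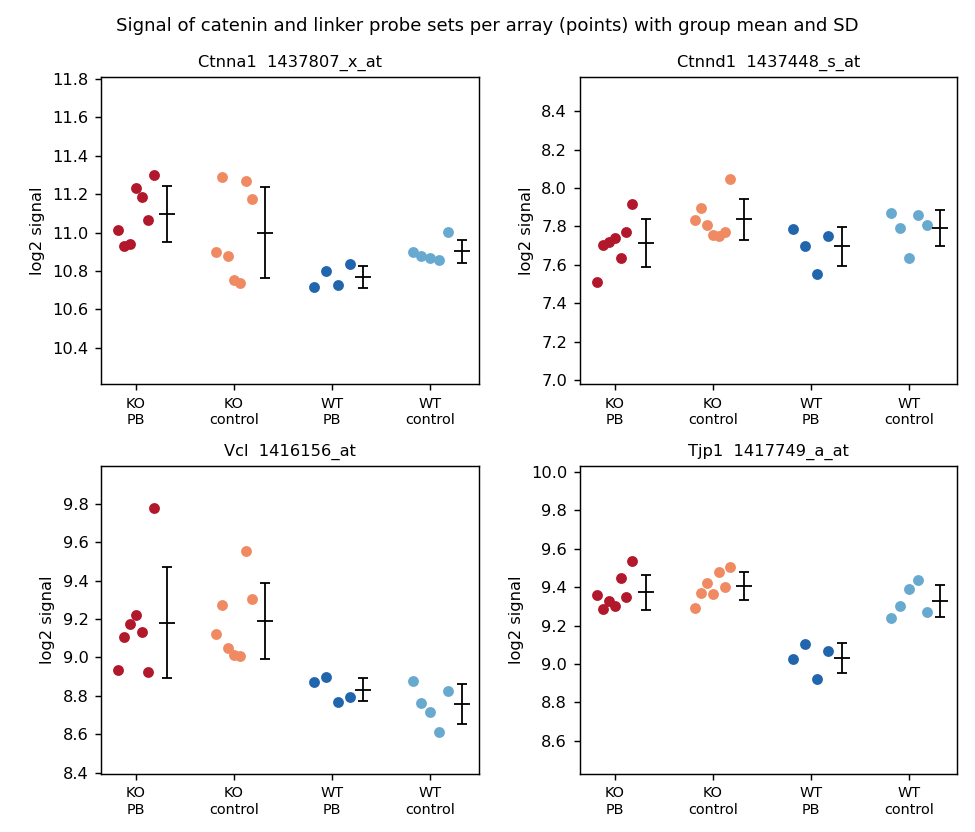
Log2 signal of Ctnna1 (1437807_x_at), Ctnnd1 (1437448_s_at), Vcl (1416156_at) and Tjp1 (1417749_a_at) on each array (points), with group mean and SD (bars), in the order knockout phenobarbital, knockout control, wild-type phenobarbital and wild-type control. Tjp1 is lower in the 4 wild-type phenobarbital arrays (8.92 to 9.10) than in the other 19 arrays, and Ctnnd1 overlaps in all groups.

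Across the members phenobarbital effects were about the size of those over all probe sets tested. The median absolute log2 change was 0.076 for members and 0.078 over all in knockout livers. In wild-type livers it was 0.096 for members and 0.093 over all. In knockout livers 0 of 15 probe sets were called by limma (2.82% of all probe sets tested were, 1.07% up and 1.75% down), 2 had an unadjusted p under 0.05, and none was free of overlap between the groups (1.11% of all). Without knockout control arrays 2, 6 and 7, 3 were called, Cdh1 and the 2 bright Ctnna1 probe sets, all higher with phenobarbital, against 6.07% of all. Those arrays were the highest of their group for these probe sets, so these calls are not counted as support. In wild-type livers only Tjp1 was called of the 15 (3.70% of all, 1.72% up and 1.98% down; 5.62% of all without those arrays), and 4 did not overlap (10.8% of all): Tjp1, Ctnnb1 1420811_a_at, Cdh2 1418815_at and Ctnna1 1437807_x_at, all lower with phenobarbital. For the difference of phenobarbital effects between the genotypes, 0 of 15 were called by limma (0.893% of all, 0.352% up and 0.541% down) and 2 had an unadjusted p under 0.05. Without the 3 arrays 2 were called, Cdh1 and Ctnna1 1437807_x_at (1.83% of all). The choice of arrays bears on these calls in the same way. The comparisons share groups, so their results are not independent.

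Other proteins of the adherens junction were read from a list of 38 genes, of which 31 were tested; a gene counts as called when any of its probe sets was. Under phenobarbital 7 were higher and 3 lower in knockout livers, and in controls 8 were higher and 1 lower (11 and 3, and 5 and 1, without arrays 2, 6 and 7). By probe set, 11 of 64 were higher and 3 lower under phenobarbital (9.17% and 7.97% of all probe sets tested). In controls 11 were higher and 1 lower (11.8% and 9.81% of all). No share over all genes was computed, here or for the lists below. The list's median was 0.10 and 0.02, beside -0.01 and -0.02 over all probe sets tested. Iqgap1, a scaffold that binds actin and beta-catenin, was 1.42 higher under phenobarbital (adjusted p = 0.014) and 1.69 higher in controls (adjusted p = 0.0023; 1.003 without arrays 2, 6 and 7, adjusted p = 0.035). Cdh5, the cadherin of endothelial cells and one of the endothelial markers above, was 0.77 and 0.76 higher (adjusted p = 0.00089 and 0.00047). The actin crosslinker Actn1 was 0.68 higher under phenobarbital (adjusted p = 0.0011) and 0.55 in controls (adjusted p = 0.0033; 0.31 without those arrays), and the apical actin regulator Shroom3 0.52 under phenobarbital (adjusted p = 0.010). Vasp and Enah, which lengthen actin filaments, were 0.95 and 0.88 higher in controls (adjusted p = 0.010 and 0.013). Both calls ended without those arrays, at 0.54 for Vasp and 0.44 for Enah (adjusted p = 0.097 and 0.18). Phenobarbital lowered 2 of the list in wild-type livers, the actin-membrane linker Afdn (-0.21, adjusted p = 0.044) and Lpp (-0.43, adjusted p = 0.041), and called 0 in knockout livers, where 2 were higher and 2 lower without arrays 2, 6 and 7.

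Desmosomes, where Jup is a plaque protein, had 11 tested genes, of which 2 were higher and 1 lower under phenobarbital and 2 higher and 2 lower in controls (2 and 1, and 1 and 1, without arrays 2, 6 and 7). By probe set, 4 of 23 were higher and 1 lower under phenobarbital (9.17% and 7.97% of all). In controls 4 were higher and 2 lower (11.8% and 9.81% of all). Under phenobarbital Pkp2, a plaque protein, was 0.57 higher in knockout livers (adjusted p = 3.6e-05), Dsp, desmoplakin, was 0.41 higher (adjusted p = 0.0026), and the membrane protein Perp fell by 0.48 (adjusted p = 0.014). In controls Pkp2 was 0.26 higher (adjusted p = 0.016) and Dsc2, a desmosomal cadherin, differed by -0.39 (adjusted p = 0.0081). Probe sets of Dsg2, the other desmosomal cadherin, disagreed: 1425619_s_at was 0.24 higher (adjusted p = 0.015) and 1426153_a_at differed by -0.64 (adjusted p = 0.0025). Without arrays 2, 6 and 7 the control calls of Pkp2 (0.23, adjusted p = 0.12), Dsc2 (-0.33, adjusted p = 0.056) and Dsg2 1425619_s_at (0.22, adjusted p = 0.086) ended. Dsg2 1426153_a_at also had a difference of phenobarbital effects of 1.01 (SE 0.20, adjusted p = 0.012).

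Of 22 tested tight junction genes, the partners of Tjp1, 7 were higher and 3 lower in knockout livers under phenobarbital, and 4 were higher and 6 lower in controls, with Cgnl1 counted on both sides and on neither without arrays 2, 6 and 7 (9 and 4, and 3 and 1, in that setting). By probe set, 8 of 48 were higher and 4 lower under phenobarbital (9.17% and 7.97% of all). In controls 5 were higher and 8 lower (11.8% and 9.81% of all). Cldn2, a pore-forming claudin of perivenous hepatocytes, differed by -1.10 (adjusted p = 0.0044) and -1.26 (adjusted p = 0.00074). The adhesion molecule Jam2 was 0.89 higher under phenobarbital (adjusted p = 0.000303) and 0.72 in controls (adjusted p = 0.0011), and its relative F11r 0.52 and 0.76 higher (adjusted p = 0.015 and 0.00037). Marveld3, a membrane protein of the occludin family, was 0.98 higher under phenobarbital (adjusted p = 0.0048). Occludin (Ocln, 1448873_at) averaged 7.64 ± 0.08 in wild-type phenobarbital livers against 8.46 ± 0.44 in wild-type controls (-0.81, adjusted p = 0.039), and was 0.75 higher in knockout than in wild-type livers under phenobarbital (adjusted p = 0.015). Cldn1 fell with phenobarbital in wild-type livers (-0.58, adjusted p = 0.015) and was 0.41 higher in knockout livers under phenobarbital (adjusted p = 0.029).

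Of 5 tested gap junction genes, 3 were higher and 0 lower under phenobarbital and 3 higher and 1 lower in controls (4 and 0, and 3 and 0, without arrays 2, 6 and 7). By probe set, 7 of 11 were higher and 0 lower under phenobarbital (9.17% and 7.97% of all). In controls 7 were higher and 2 lower (11.8% and 9.81% of all). Gja1, connexin 43, was 1.39 higher in knockout livers under phenobarbital (1415800_at, adjusted p = 8.5e-05) and 1.70 higher in controls (adjusted p = 2.8e-06), and each of its 5 probe sets passed in both. Gjb1, the main hepatocyte connexin, differed by -0.35 in controls (1448766_at, adjusted p = 0.027; -0.19 without those arrays, adjusted p = 0.32), and Gjb2 was 0.35 higher under phenobarbital (adjusted p = 0.0077). Focal adhesions, the second site of vinculin, had 15 tested genes, of which 2 were higher and 0 lower under phenobarbital and 7 higher and 2 lower in controls (5 and 1, and 4 and 0, without arrays 2, 6 and 7). By probe set, 2 of 33 were higher and 0 lower under phenobarbital, and 10 higher and 3 lower in controls, beside the same shares of all. Filamin A (Flna) was 1.004 higher in controls (adjusted p = 0.0024), talin 1 (Tln1) 0.46 (adjusted p = 0.0020) and Tns1 0.45 (adjusted p = 0.00054), while the integrin activator Fermt2 differed by -0.60 (adjusted p = 0.011). Without those arrays Flna was 0.65 higher (adjusted p = 0.021), and the Fermt2 call ended (-0.41, adjusted p = 0.13).

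Proteins that degrade beta-catenin or work with it in the nucleus were read as well. Of 15 tested genes of the destruction complex, 2 were higher and 5 lower under phenobarbital and 2 higher and 1 lower in controls (2 and 6, and 0 and 1, without arrays 2, 6 and 7). By probe set, 4 of 46 were higher and 6 lower under phenobarbital (9.17% and 7.97% of all). In controls 2 were higher and 1 lower (11.8% and 9.81% of all). The ubiquitin ligase subunit Fbxw11 was 0.50 higher (adjusted p = 0.0018) and 0.31 higher (adjusted p = 0.026; 0.15 without those arrays, adjusted p = 0.34), and the kinase Csnk1a1 had 1 probe set 0.32 higher (1424827_a_at, adjusted p = 0.0012) and 1 that differed by -0.20 (1430529_at, adjusted p = 0.035) under phenobarbital. Of 17 tested nuclear partners, 3 were higher and 3 lower under phenobarbital and 2 higher and 2 lower in controls (4 and 3, and 3 and 4, without arrays 2, 6 and 7). By probe set, 4 of 31 were higher and 4 lower under phenobarbital, and 3 higher and 3 lower in controls, beside the same shares of all. The corepressor Tle1 differed by -0.93 under phenobarbital (1422751_at, adjusted p = 0.00098) and by -0.81 in controls (1434033_at, adjusted p = 0.0016), whereas its relative Tle4 was 0.54 and 0.53 higher (adjusted p = 0.00087 and 0.00049). Ctnnbip1, which blocks the binding of beta-catenin to TCF factors, was 0.52 higher (adjusted p = 0.0015) and 0.64 higher (adjusted p = 8.2e-05). Crebbp, an acetyltransferase coactivator, differed between phenobarbital and control knockout livers by -0.39 (1436983_at, adjusted p = 3.6e-05).

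Of 6 tested genes known to repress Cdh1 in other cells, 3 were higher and 0 lower in knockout livers under phenobarbital and 2 higher and 0 lower in controls, the same gene counts without arrays 2, 6 and 7. By probe set, 6 of 19 were higher and 0 lower under phenobarbital (9.17% and 7.97% of all). In controls 10 were higher and 0 lower (11.8% and 9.81% of all). Without arrays 2, 6 and 7, 8 probe sets were higher under phenobarbital and 5 in controls, and 0 were lower. In that setting 25.0% and 8.82% of all probe sets were called in either direction. Zeb2 was 1.35 higher (1434298_at, adjusted p = 0.0018) and 1.64 higher (adjusted p = 0.00012), Tcf4 0.41 higher under phenobarbital (1434148_at, adjusted p = 0.013) and 0.55 in controls (1424089_a_at, adjusted p = 0.0075; 0.34 without those arrays, adjusted p = 0.12), and Snai2 0.53 under phenobarbital (adjusted p = 0.037). Probe sets of Zeb2 (1422748_at) and Zeb1 were lower with phenobarbital in knockout livers (-0.77 and -0.34, adjusted p = 0.046 and 0.0046). The Zeb2 call ended without those arrays (-0.34, adjusted p = 0.27). The list medians of the genotype difference under phenobarbital and in controls were 0.10 and 0.12 for desmosomes, -0.05 and -0.03 for tight junctions, 0.41 and 0.57 for gap junctions, 0.05 and 0.16 for focal adhesions, 0.03 and -0.01 for the destruction complex, -0.03 and -0.0047 for nuclear partners, and 0.12 and 0.32 for the repressors of Cdh1.

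Over the 23 arrays the genes whose level ran most like Ctnnb1 (1420811_a_at) were Alcam (Pearson r = 0.88), Cnn3 (0.87), Slc39a4 (0.86) and Tgfb2 (0.85), among 13822 genes of which 1% exceeded 0.76. For Jup they were Dhrs11 (0.78), Tcta (0.75), Rc3h1 (0.72) and Upf1 (0.72), with 1% of genes over 0.58. For Cdh1 they were Shtn1 (0.93), Faap20 (0.92), Tmbim1 (0.91) and Micu2 (0.91), with 1% over 0.82. The arrays share groups, so these correlations include the group differences. Between the members, deviations from group means of Cdh1 followed those of Ctnna1 1437807_x_at (r = 0.81) and Ctnnb1 1420811_a_at (r = 0.77), and ran weakly against those of Jup (r = -0.25) and Cdh2 1418815_at (r = -0.41). Jup and Ctnnb1 1420811_a_at had r = -0.27.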

How the data were processed

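Liver RNA was hybridised to 23 Affymetrix 3' arrays. The authors deposited log2 signals, made with RMA in affy per the submitters' processing notes. Versions, and the set of arrays that RMA was run on, are not given in the sources used here. The deposited values were not scaled further. Probe sets took their gene from the platform annotation, with symbols updated through Entrez for 34741 of 34945 single-gene probe sets. Coordinates and promoters are RefSeq's on GRCm38.p6.

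Probe sets over the 40th percentile of their array on 4 or more arrays entered the test (28673 kept, 16364 left out). limma 3.58.1 (R 4.3.3) estimated the 4 group means from the 23 arrays together, with two-sided moderated tests, and the Benjamini-Hochberg adjustment ran over the 28673 probe sets. A call is an adjusted p below 0.05. Differences run knockout minus wild type or phenobarbital minus control; the interaction subtracts the wild-type effect of phenobarbital from that in knockout livers. The script was tested on simulated data. The members, gene lists and naming rules were chosen with earlier results of these data known. Of each list, up to 4 called genes with the largest change per comparison could be named; Cgnl1 was named after its values were seen. List genes without a probe set of their own were not analysed here. Alternatives covered filters, probe set unit, normalization, variance prior, array weights, samples in the fit, the replicate block and each array left out. Leaving out knockout control arrays 2, 6 and 7 together, and the macrophage level as a covariate, were added after seeing the data.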

Additional observations from a re-analysis of the deposited data

Results flagged for a closer look

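Of 60 combinations of a group and a tested member probe set, 3 held an array far from the rest of its group, where chance gives about 1 in 20. Ctnnb1 1430533_a_at was 6.67 in wild-type control array 5, below the next value of 6.96. Cdh2 1449244_at was 9.13 in the same array, below the next value of 9.31 but above all knockout arrays. Vcl 1416156_at was 9.78 in knockout phenobarbital array 7, above the next value of 9.22.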

How the results depend on the processing

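Of 75 single results (15 probe sets in 5 comparisons), 61 kept their side of the threshold in all of up to 35 other settings, and none that was called changed sign. Leaving out 1 array in turn gave 5 to 8 member calls between knockout and wild type under phenobarbital (6 with all arrays), 3 to 5 in controls (3, and 5 without knockout control array 4 or 5), 0 to 1 for phenobarbital in knockout livers (0), 1 in wild-type livers (1) and 0 for the interaction (0). Without knockout control arrays 2, 6 and 7 the phenobarbital calls in knockout livers were 3 and those of the interaction 2. Those arrays held the highest knockout control values of the probe sets so called, as described above. Cdh2 1449244_at passed for phenobarbital in knockout livers without knockout control array 7 (-0.20, adjusted p = 0.040), and Cdh1 passed between control genotypes without knockout control array 1, 4 or 5 (up to 0.62, lowest adjusted p = 0.021). Vcl under phenobarbital (main adjusted p = 0.054) passed in 7 of 35 settings and Ctnna1 1448149_at in 6 of 33.

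Same-numbered arrays did not pair: deviations of 20 such pairs correlated at -0.63 to 0.58, over 0.1 in 3. A replicate block gave 5 member calls between genotypes under phenobarbital, 3 in controls, 0 and 1 for phenobarbital in knockout and wild-type livers and 0 for the interaction; it ended the call of Ctnna1 1437807_x_at and no other member call. Calls over all probe sets varied more: 2504 to 8091 between genotypes under phenobarbital (4915), 1607 to 7092 in controls (6202), 422 to 1741 and 560 to 2717 for phenobarbital in knockout and wild-type livers (810 and 1061) and 155 to 613 for the interaction (256). The lowest counts came with the macrophage covariate for both genotype differences, and without wild-type phenobarbital array 3 for the wild-type effect and the interaction. The causes were not tested.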
